A study of Rattus norvegicus with 10 samples.

Results

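The class II and class IV histone deacetylases (HDACs) are the zinc-dependent deacetylases outside the group that RG2833, an inhibitor of HDAC1 and HDAC3, is stated to target. The rule named 7 genes by symbol: Hdac4, Hdac5, Hdac7 and Hdac9 of class IIa, Hdac6 and Hdac10 of class IIb, and Hdac11, the only member of class IV. Of these, 5 were found among the 17168 genes of the deposited tables, and all 5 had enough counts to be tested, among 12161 genes in all. Hdac6 and Hdac7 are not analysed here. Class IIa proteins have weak catalytic activity of their own. They move between nucleus and cytoplasm, hold MEF2 transcription factors in a repressed state, and leave the nucleus when calcium-dependent kinases phosphorylate them, which ties them to neuronal activity. Hdac6 acts mostly in the cytoplasm, on tubulin and chaperones, Hdac10 deacetylates the polyamine acetylspermidine, and Hdac11 removes fatty acyl groups.

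Each library was made from the left hippocampus of 1 male rat of the TgF344-AD line, killed at 11 months of age (10 rats). TgF344-AD is a rat line that carries human transgenes, mutant APP among them, driven by a prion promoter, as a model of Alzheimer's disease; all 10 rats carried them. The 5 untreated rats ate plain chow, and the 5 RG2833 rats ate chow with 750 mg of RG2833 per kg for 6 months, from 5 months of age. The sentence of the design text that gives this start and duration names ibudilast; the sample labels and the title name RG2833, so that the timing is taken to be that of RG2833. The comparison asks whether gene expression differs between these groups; females and rats without the transgenes were not analysed here.

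Total expected counts ran from 15118203 to 18533520 per library. The hippocampal neuron markers fixed for the check of the tissue were all detected (6 of 6), with a summed level of 423 to 1126 CPM, which are counts per 1e6 of the scaled library size. In 2 libraries the choroid plexus markers stood apart: their summed level was 7557 CPM in untreated replicate 2 and 8887 CPM in RG2833 replicate 1, against 7.12 to 265 CPM in the other 8. In 3 libraries, untreated replicate 3 and RG2833 replicates 4 and 5, markers of neurons were low and those of microglia and endothelium high, as described with Hdac5 below. The RNA is that of whole tissue, in which fewer cells of a type and less RNA per cell cannot be told apart.

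Transcripts of the 5 genes did not differ between RG2833 and untreated rats by more than the spread between animals. By edgeR's quasi-likelihood test, 0 of 5 passed at an adjusted p under 0.05 over all genes, where 0% of all genes did. DESeq2 called 0 of 5 as well, with a smallest adjusted p of 0.930, and 0.0578% of all genes with an adjusted p (7 of 12101). At an unadjusted p under 0.05 the count was 0 of 5, against 5.66% of all genes. In none of the 5 did the values of the groups separate, which happened in 1.00% of all genes tested. The 3 class IIa genes had higher means in RG2833 rats, and Hdac10 and Hdac11 had lower ones. The median log2 fold change of the 5 was 0.10, beside -0.01 over all genes tested. This median is the value of Hdac9, which was 0.01 without RG2833 replicate 2.

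**Figure D1:**
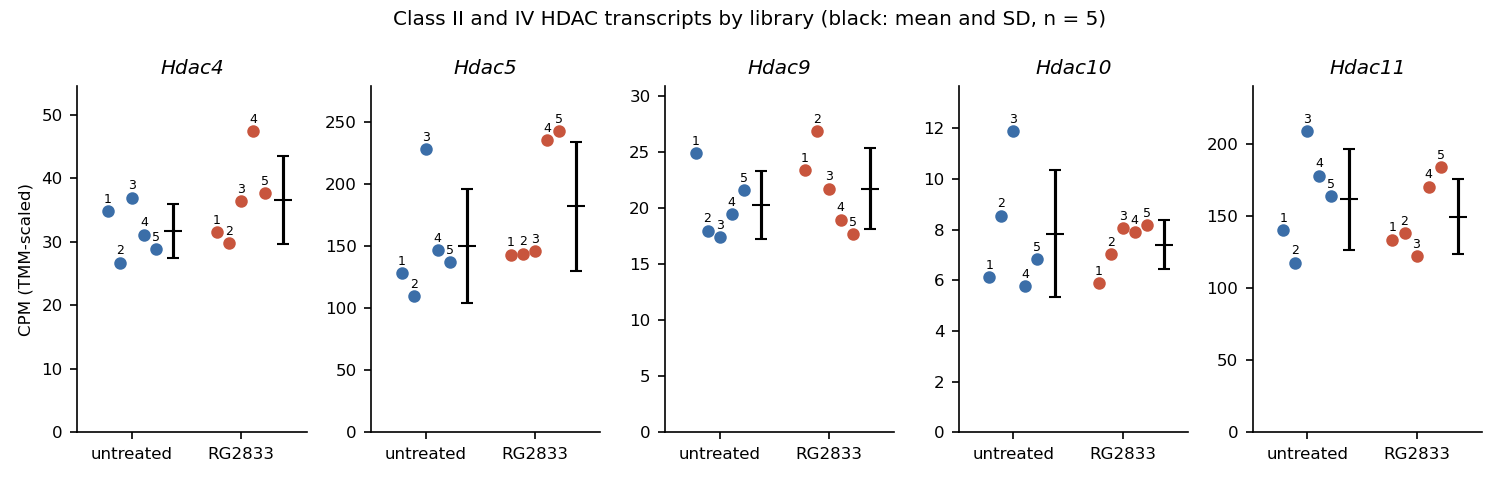
Each panel plots CPM on the TMM-scaled library size (y axis, from 0) for 1 gene in the 5 untreated and 5 RG2833 libraries; points are libraries numbered by replicate, and black marks are the mean and SD. The groups overlap in every panel, and in the Hdac5 panel 3 libraries of both groups stand at 229 to 243 CPM, above the other 7.

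Hdac5, a class IIa repressor of MEF2, varied most among these genes when the highest library is set against the lowest, by 2.21-fold. It stood at 128, 110.1, 229, 147 and 137 CPM in untreated replicates 1 to 5 and at 143, 144, 146, 235 and 243 CPM in RG2833 replicates 1 to 5. The values fell into a lower range of 7 libraries, which ends at 147 CPM, and a higher range of 3, which holds 1 untreated and 2 RG2833 libraries. The gap between the ranges took up 0.557 of the whole log2 range. The means were 150.2 ± 45.8 CPM without the drug and 182 ± 51.9 CPM with it (SD, n = 5 each). The log2 fold change was 0.28 (SE 0.23, 95% interval -0.22 to 0.78; edgeR adjusted p = 0.904), and the exact permutation p was 0.198, two-sided. Only the 2 RG2833 libraries of the higher range lay above the untreated mean. Leaving out the 1 untreated library of that range, replicate 3, gave a log2 fold change of 0.48 (unadjusted p = 0.0295, edgeR adjusted p = 0.323). In that fit 1732 of 12196 genes had an unadjusted edgeR p under 0.05, against 688 of 12161 with all 10 libraries. Leaving out RG2833 replicate 5 gave a log2 fold change of 0.16 for Hdac5.

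Hdac4, the class IIa relative of Hdac5, had its highest values in the same 3 libraries. It stood at 34.9, 26.7, 37.0, 31.1 and 28.9 CPM in untreated replicates 1 to 5 and at 31.5, 29.8, 36.4, 47.4 and 37.6 CPM in RG2833 replicates 1 to 5. RG2833 replicate 4 was the highest, while RG2833 replicate 3 came within 1 CPM of untreated replicate 3, so the separation seen for Hdac5 was not seen here. The means were 31.7 ± 4.20 and 36.5 ± 6.89 CPM (SD, n = 5 each), which gave 0.21 as the log2 fold change (SE 0.13, 95% interval -0.09 to 0.50; edgeR adjusted p = 0.867; exact permutation p = 0.198). It ranked 2139 of 12161 genes by p, ahead of the other 4 HDAC genes described here. Without RG2833 replicate 4 its log2 fold change was 0.10.

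The 250 bases before the annotated start of Hdac5 and Hdac4 are shown because these 2 class IIa genes shared their 3 highest libraries. They are from the RefSeq promoter table on GRCr8, another build than the rn6 named in the submitters' processing notes, so they serve only to show sequence. The Hdac5 window is chr10:87688055-87688304 and the Hdac4 window chr9:100197638-100197887, both upstream of genes on the minus strand. Capitals mark, on either strand, matches to the MEF2 consensus, the E-box CACGTG and the cyclic AMP response element half-site TGACG. The full element TGACGTCA was also searched, with 0 matches in both windows. The GC box GGGCGG and the CCAAT box were searched too, are present in both windows and are not marked.
Hdac5: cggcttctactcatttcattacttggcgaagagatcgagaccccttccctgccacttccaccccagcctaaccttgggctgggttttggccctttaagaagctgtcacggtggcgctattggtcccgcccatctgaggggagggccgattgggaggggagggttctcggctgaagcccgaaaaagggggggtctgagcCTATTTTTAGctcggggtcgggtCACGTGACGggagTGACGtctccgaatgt
Hdac4: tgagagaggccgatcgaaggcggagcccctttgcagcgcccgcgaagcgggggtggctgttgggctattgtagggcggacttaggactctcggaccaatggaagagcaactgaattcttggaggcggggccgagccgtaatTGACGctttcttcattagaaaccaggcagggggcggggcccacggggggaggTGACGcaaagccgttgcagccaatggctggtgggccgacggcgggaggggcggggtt
The Hdac5 window holds 1 match to the MEF2 consensus, which is found in 0.523% of the 33469 promoter windows of the same length, and the match begins 52 bases before the start. It also holds 1 E-box CACGTG (5.59% of windows), whose last 2 bases are the first 2 of a TGACG match. Both windows hold 2 matches to TGACG, and the Hdac4 window holds neither of the other marked motifs. At least 1 match to TGACG is found in 18.2% of windows, and the share with 2 was not counted. The Hdac9 and Hdac10 windows hold none of the 3 marked motifs. The motifs were chosen with the sequences in view, and a match is a description of letters only.

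Hdac9, the class IIa gene whose transcripts include a form without the catalytic domain, had the narrowest range, 1.54-fold. It stood at 24.9, 18.0, 17.4, 19.5 and 21.6 CPM in untreated replicates 1 to 5 and at 23.4, 26.9, 21.7, 19.0 and 17.7 CPM in RG2833 replicates 1 to 5. Its order ran the other way: untreated replicate 3 and RG2833 replicate 5 gave the lowest values, followed by untreated replicate 2 and RG2833 replicate 4. The means were 20.3 ± 3.04 and 21.7 ± 3.63 CPM (SD, n = 5 each), which gave 0.10 as the log2 fold change (SE 0.13, 95% interval -0.19 to 0.39; edgeR adjusted p = 0.946; exact permutation p = 0.524). The value was 0.01 without RG2833 replicate 2 and 0.19 without untreated replicate 1.

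Hdac10, the class IIb polyamine deacetylase, rested on few reads, with 91 to 199 expected counts per library. It stood at 6.12, 8.55, 11.9, 5.76 and 6.84 CPM in untreated replicates 1 to 5 and at 5.87, 7.04, 8.06, 7.89 and 8.16 CPM in RG2833 replicates 1 to 5. Untreated replicate 3 was the highest library, and the RG2833 values all lay within the untreated range. The means were 7.83 ± 2.51 and 7.40 ± 0.964 CPM (SD, n = 5 each), which gave -0.08 as the log2 fold change (SE 0.20, 95% interval -0.52 to 0.36; edgeR adjusted p = 0.977; exact permutation p = 0.849). Without untreated replicate 3 the sign turned, to 0.12, and without the 2 libraries rich in choroid plexus RNA it was 0.020.

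Hdac11, the class IV enzyme, stood at 140.0, 118, 209, 178 and 164 CPM in untreated replicates 1 to 5 and at 134, 138, 122, 170.2 and 184 CPM in RG2833 replicates 1 to 5. The 5 RG2833 values lay within the untreated range, and untreated replicate 3 was again the highest library. The means were 162 ± 35.0 and 149 ± 26.2 CPM (SD, n = 5 each), which gave -0.11 as the log2 fold change (SE 0.16, 95% interval -0.47 to 0.24; edgeR adjusted p = 0.952; exact permutation p = 0.579). Leaving out untreated replicate 3 gave -0.01, and leaving out untreated replicate 2 gave -0.21.

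**Figure D2:**
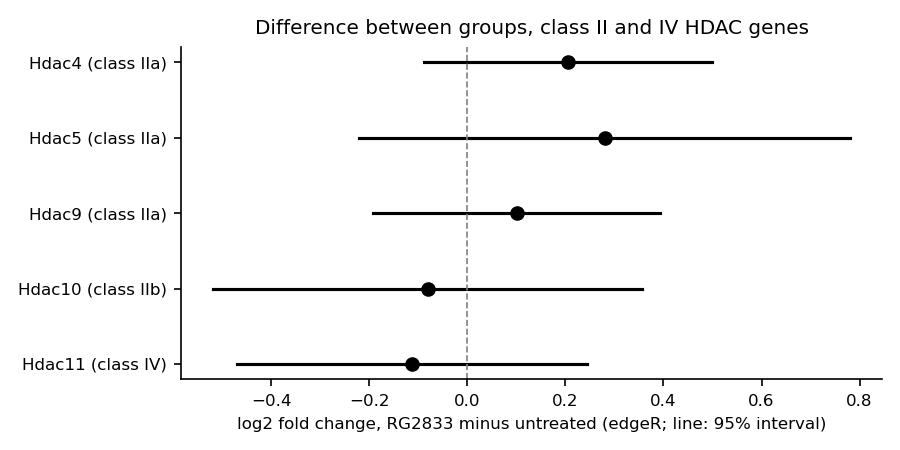
Points are log2 fold changes of RG2833 minus untreated from edgeR (x axis) for the 5 genes, and lines are 95% intervals over 5 and 5 libraries. Every interval holds 0; that of Hdac5 is the widest, from -0.22 to 0.78.

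The intervals bound what these libraries could miss. On the fold scale they ran from 0.940 to 1.41 for Hdac4, from 0.858 to 1.72 for Hdac5, from 0.876 to 1.31 for Hdac9, from 0.698 to 1.28 for Hdac10 and from 0.722 to 1.18 for Hdac11. A doubling or a halving of any of the 5 transcripts thus lay outside its interval, while modest differences in either direction lay inside.

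**Figure D3:**
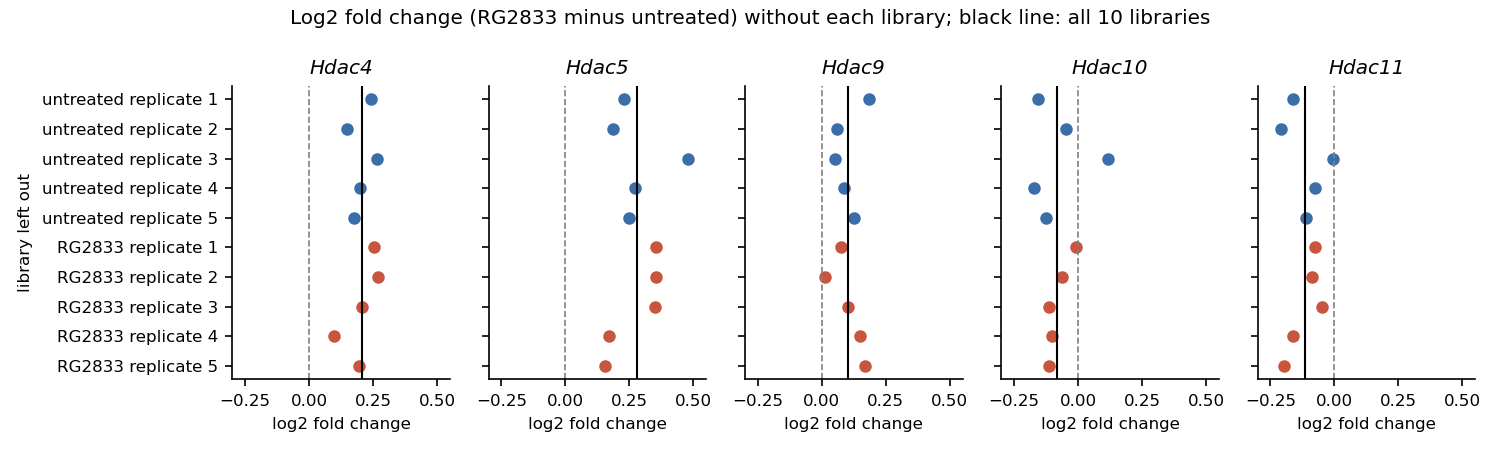
Each panel gives the edgeR log2 fold change of RG2833 minus untreated (x axis) for 1 gene with the library on the y axis left out; blue points leave out an untreated and red points an RG2833 library, and the black line is the value with all 10. Leaving out untreated replicate 3 moves Hdac5 up to 0.48 and Hdac10 across 0, to 0.12.

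The 3 libraries in which Hdac5 was highest also differed from the other 7 in the cell type markers. The summed level of 6 neuron markers was 3279 CPM in untreated replicate 3, 3928 CPM in RG2833 replicate 4 and 3766 CPM in RG2833 replicate 5, against 4927 to 5956 CPM in the other 7. The hippocampal neuron markers were lowest there too, at 423, 509 and 521 CPM against 562 to 1126 CPM. Microglia markers ran the opposite way, at 758, 577 and 606 CPM in these 3 libraries and at 392 to 487 CPM in the rest. Endothelial markers were also highest there, at 406, 369 and 446 CPM, against 212 to 286 CPM. Astrocyte markers overlapped, at 6093, 6804 and 6663 CPM against 4480 to 6556 CPM, and oligodendrocyte markers did not follow Hdac5, at 6808, 10447 and 15374 CPM against 7877 to 13491 CPM. None of these markers was at 0 in all libraries. The share of counts from ribosomal RNA was 11.4%, 9.37% and 8.92% in these 3 libraries and 4.07% to 8.71% in the others (95% Wilson intervals within ± 0.015 percentage points, counting error only). Between the treatment groups, the marker lists overlapped: microglia markers ranged from 392 to 758 CPM in untreated and from 425 to 606 CPM in RG2833 rats, and neuron markers from 3279 to 5956 and from 3766 to 5538 CPM. The part of these measures in the level of Hdac5 was not tested.

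Of the 4 class I deacetylases, Hdac2 and Hdac3 were lower in all 3 of these libraries than in any other. The share of all genes that separated these libraries in this way is not given here, so the count is a description only. Hdac2 stood at 64.6, 69.6 and 67.8 CPM in untreated replicate 3 and RG2833 replicates 4 and 5 and at 80.5 to 93.9 CPM in the other 7. Hdac3, a target of the drug, stood at 46.0, 41.7 and 41.8 CPM there and at 47.0 to 53.3 CPM elsewhere. Hdac1, the other target, did not follow, with 42.4, 32.7 and 38.1 CPM against 32.5 to 41.5 CPM, nor did Hdac8, with 15.5, 17.7 and 17.8 CPM against 16.2 to 19.2 CPM. Hdac11 was above all other libraries in 2 of the 3, and Hdac9 below all others in 2 of the 3.

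**Figure D4:**
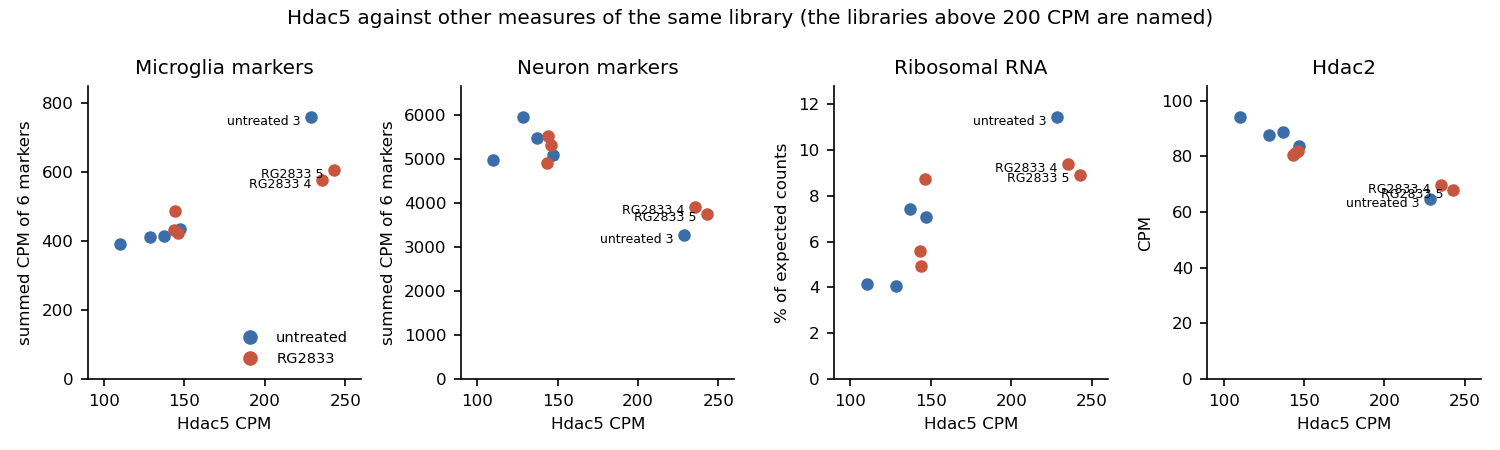
Hdac5 CPM (x axis) is plotted against the summed CPM of 6 microglia and 6 neuron markers, the percent of expected counts from ribosomal RNA, and Hdac2 CPM, 1 point per library (blue untreated, red RG2833). Untreated replicate 3 and RG2833 replicates 4 and 5, at 229 to 243 CPM of Hdac5, are highest in the microglia markers and ribosomal RNA and lowest in the neuron markers and Hdac2.

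Over all 10 libraries, 5 of the 6 relations of Hdac5 with the marker lists passed the adjustment by Pearson's r, all but that with oligodendrocyte markers, and 2 passed by Spearman's rho, those with astrocyte and microglia markers (permutation test, adjusted p = 0.0115 for both). The values of Hdac5 fell into separate ranges, which these pooled relations span, so no pooled coefficient with the marker lists is given. Within the 7 libraries of the lower range, a restriction made after seeing the data, Pearson's r of Hdac5 was 0.753 with astrocyte markers (exact permutation p = 0.0452, adjusted p = 0.396) and Spearman's rho 0.786 (adjusted p = 0.264 by exact permutation). With microglia markers r was 0.711 (exact permutation p = 0.0978, adjusted p = 0.396) and rho 0.821 (adjusted p = 0.264 by exact permutation). For the other 3 lists that passed over all 10 libraries, r was -0.319 with endothelial markers, against a positive sign over all 10, 0.136 with neuron markers, against a negative one, and -0.0798 with hippocampal neuron markers; rho was -0.0714, 0.00 and -0.179. By either coefficient 0 of the 11 relations computed in these libraries passed the adjustment. These 7 were chosen by the level of Hdac5 itself, which narrows its range, so a relation that did not pass here is not shown to be absent.

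For the other 4 genes, 24 relations with 6 marker lists were tested over all 10 libraries, with p-values adjusted over 30 relations, those of Hdac5 included. By Pearson's r 6 of these 24 passed, and by Spearman's rho 0 did, so that the only relations to pass by rho were the 2 of Hdac5. The share of all genes that pass against these lists is not given here. The neuron, hippocampal neuron, microglia and endothelial lists set apart the same 3 libraries as Hdac5. Pooled coefficients with these lists therefore span that gap, and leaving out 2 libraries cannot remove all 3. Hdac4 went with astrocyte markers (r = 0.800, permutation p = 0.0050, adjusted p = 0.0248; rho = 0.806, permutation p = 0.0076, adjusted p = 0.0574), and r was 0.623 without the 2 libraries farthest from the median. Hdac9 went with neuron markers (r = 0.775, permutation p = 0.0090, adjusted p = 0.0305; rho = 0.806, permutation p = 0.0074, adjusted p = 0.0574), with r of 0.644 without the 2 farthest. Hdac10 went with endothelial markers (r = 0.745, permutation p = 0.0112, adjusted p = 0.0305; rho = 0.733, permutation p = 0.0207, adjusted p = 0.0889), with r of 0.620 without the 2 farthest. It went against neuron markers (r = -0.752, permutation p = 0.0111, adjusted p = 0.0305; rho = -0.600, permutation p = 0.0738, adjusted p = 0.148), but r was -0.416 without the 2 farthest.

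Hdac11 went against the hippocampal neuron markers (r = -0.806, permutation p = 0.0019, adjusted p = 0.0187; rho = -0.770, permutation p = 0.0125, adjusted p = 0.0749; r = -0.641 without the 2 farthest libraries). It went with microglia markers (r = 0.789, permutation p = 0.0049, adjusted p = 0.0248; rho = 0.758, permutation p = 0.0153, adjusted p = 0.0764; r = 0.515 without the 2 farthest). The relation of Hdac11 with oligodendrocyte markers did not pass by r (0.151, permutation p = 0.679, adjusted p = 0.727) or by rho (0.115, permutation p = 0.759, adjusted p = 0.813). Its r was 0.684 without the 2 farthest libraries, -0.141 within the untreated and 0.743 within the RG2833 libraries. This relation is thus not shown to be absent. Each of the 6 relations that passed by r had the same sign within the 5 untreated and within the 5 RG2833 libraries. All of these values share the library and its scaling. The share of ribosomal RNA was also set against these 4 genes, in 4 relations added after seeing the data, of which 0 passed the adjustment over the 4. For Hdac11 r was 0.721 (permutation p = 0.0213, adjusted p = 0.0569; rho = 0.648, permutation p = 0.0478, adjusted p = 0.0641; r = 0.589 without the 2 farthest libraries). For Hdac4 r was 0.652 (permutation p = 0.0391, adjusted p = 0.0569; rho = 0.697, permutation p = 0.0311, adjusted p = 0.0641; r = 0.832 without the 2 farthest). For Hdac10 r was 0.640 (permutation p = 0.0427, adjusted p = 0.0569; rho = 0.455, permutation p = 0.189, adjusted p = 0.189; r = 0.219 without the 2 farthest), and for Hdac9 it was -0.604 (permutation p = 0.0648, adjusted p = 0.0648; rho = -0.648, permutation p = 0.0481, adjusted p = 0.0641; r = -0.368 without the 2 farthest). The part of this share in the marker relations was not tested.

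The genes whose log2 CPM was most like that of each HDAC gene over the 10 libraries were found among 11714 tested genes with a symbol, by Pearson's r, as a description of the same libraries; for Hdac5 this r spans both ranges of its values. For Hdac5 these were Npas2, a transcription factor related to the clock protein CLOCK (r = 0.994), the tyrosine kinase Tnk2 (0.988) and Ppp2r4, an activator of protein phosphatase 2A (0.988). Npas2 ran from 37.1 to 154 CPM. For Hdac4 they included the receptor kinase Adrbk2 (0.951) and the tankyrase Tnks (0.949). For Hdac9 they were Nell1 (0.938), Gyg1, which primes glycogen synthesis (0.928), and Crym, a thyroid hormone binding protein (0.924). Hdac10 was most like Tp53i13 (0.934), the interferon regulatory factor Irf3 (0.932) and Tbc1d2b (0.930). Hdac11 was most like Rasgef1c (0.962), the small GTPase Rnd1 (0.959) and the receptor tyrosine kinase Tyro3 (0.954). No gene was among the 3 most like more than 1 of the 5.

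Genes around these enzymes were taken from lists of partners, regulators and substrates and the 4 class I deacetylases, 71 entries of which 66 were tested. By edgeR 0 of 66 had an adjusted p under 0.05, and 3 (4.55%) had an unadjusted p under 0.05, where 5.66% of all genes did. In RG2833 rats 28 of the 66 had higher and 38 lower means, beside 5650 higher and 6511 lower of all 12161 genes tested. Among partners and regulators of class IIa enzymes (MEF2 factors, the kinases that drive nuclear export, the phosphoserine-binding Ywha proteins and corepressors), 9 of 27 had higher and 18 lower means, with a median log2 fold change of -0.04. The smallest p of that list belonged to Camk4, a calcium-dependent kinase, whose mean was 28.0 ± 7.66 CPM without and 22.8 ± 2.55 CPM with the drug, a difference of -0.30 on the log2 scale (SE 0.16; edgeR adjusted p = 0.841).

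MEF2 targets in neurons were split 4 and 4, with a median of -0.02. Ppargc1a, the coactivator of mitochondrial biogenesis, averaged 15.4 ± 1.09 CPM without and 18.5 ± 2.0 CPM with the drug, a difference of 0.27 on the log2 scale (SE 0.09; unadjusted p = 0.0129, edgeR adjusted p = 0.841), and its groups overlapped between 15.2 and 17.1 CPM. Of 17 partners and substrates of HDAC6, 8 had higher and 9 lower means (median -0.03). Sqstm1, the ubiquitin-binding autophagy receptor, averaged 529 ± 29.9 CPM without and 479 ± 25.5 CPM with the drug (difference -0.15 on the log2 scale, SE 0.07; unadjusted p = 0.0526).

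The polyamine genes, which surround the substrate of HDAC10, held the other 2 genes with an unadjusted p under 0.05, of 10 tested. Of all genes tested, 5.66% had such a p. Among the 10 polyamine genes, 6 had higher and 4 lower means, with a median log2 fold change of 0.03. Smox, which oxidises spermine, averaged 63.1 ± 9.63 CPM without and 81.2 ± 18.3 CPM with the drug (difference 0.36 on the log2 scale, SE 0.15; unadjusted p = 0.0388). Amd1, the decarboxylase that supplies aminopropyl groups, averaged 185 ± 11.4 CPM without and 204 ± 8.80 CPM with the drug (difference 0.14 on the log2 scale, SE 0.06; unadjusted p = 0.0430). The edgeR adjusted p was 0.841 for both, and the untreated and RG2833 values of both overlapped. Of the class I deacetylases 1 of 4 had a higher and 3 a lower mean, with a median of -0.13; the smallest p was that of Hdac1 (log2 fold change -0.14, unadjusted p = 0.0964).

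Of the 45 cell type markers tested, 1 (2.22%) had an unadjusted p under 0.05 in edgeR, where 5.66% of all genes did, and 0 passed the adjustment. The 1 was Gja1, the astrocyte gap junction protein, which averaged 602 ± 98.0 CPM without and 750.1 ± 91.2 CPM with the drug (difference 0.32 on the log2 scale, SE 0.12; unadjusted p = 0.0285, edgeR adjusted p = 0.841). All 6 astrocyte markers had higher means in RG2833 rats, with a median log2 fold change of 0.25, and all 6 neuron markers had lower ones, with a median of -0.07. Of all genes tested, 5650 had higher and 6511 lower means. For the mean log2 CPM of a whole list, the exact permutation p was 0.119 for astrocyte and 0.762 for neuron markers. Neither list thus differed between the groups by that test. The smallest p of the other lists belonged to Fibcd1 for hippocampal neurons (log2 fold change 0.48), Rbfox3 for neurons (-0.11), Mog for oligodendrocytes (-0.25), Tmem119 for microglia (0.16), Pecam1 for endothelium (0.31), Otx2 for choroid plexus (-0.41) and Hba2 for red blood cells (-0.58), with unadjusted p from 0.210 for Pecam1 upwards.

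**Figure D5:**
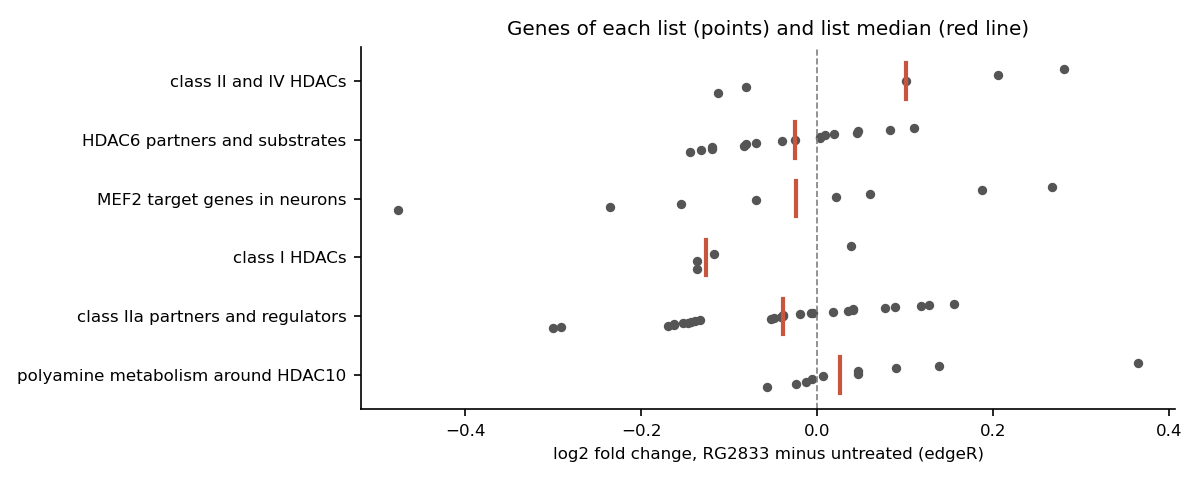
Points are edgeR log2 fold changes of RG2833 minus untreated (x axis) for the tested genes of the class II and IV deacetylases and of the 5 lists of partners, substrates and class I deacetylases (y axis; marker lists are not drawn), and red lines are list medians. The medians of these 6 lists lie between -0.13 for class I deacetylases and 0.10 for class II and IV deacetylases, and no gene shown passed the adjustment.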

How the data were processed

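Per the labels' protocols, left hippocampal RNA was turned into mRNA libraries that keep strand. Per the submitters' processing notes, bcl2fastq 2.17, Bowtie2 2.1.0, RSEM 1.2.15, edgeR and the build rn6 were used; the annotation, any filter and whether counting used strand are not given in the sources used here. The authors deposited RSEM expected counts per gene (11.6% not whole) and a TMM-normalized signal per 1e6 counts. Of this signal, 100% of values above 0 were whole multiples of 1 step per library within 0.01 reads, and 100% equalled the rounded counts.

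Expected counts were rounded to whole numbers, filtered with filterByExpr (minimum count 10, total 15; 70.8% of genes kept), scaled by TMM and tested with edgeR 4.0.16 in R 4.3.3 (quasi-likelihood, robust, Benjamini-Hochberg over all genes tested, threshold 0.05). Alternatives used DESeq2 1.42.0 and limma 3.58.1. CPM are on the TMM-scaled library size, and log2 values of them were taken with a prior count of 2. Exact permutation tests on mean log2 CPM ran over 252 regroupings (smallest p 0.00794); correlations used 100000 resamples, or all orders for 7 libraries. The fit was tested on simulated data. No library pair agreed within sampling noise (chi-square per gene at least 7.46 over 45 pairs).

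No transcript lengths were used, so levels of different genes are not compared. On GRCr8, Hdac4, Hdac9 and Hdac11 each overlap 1 unnamed gene that is absent from the tables' symbols. The members and lists were chosen with earlier results of these data known. Genes named beside the members are those of each list with an unadjusted p under 0.05, or else the smallest p, and the 3 most correlated genes per member, 1 of which is not reported here. The relations with Hdac5 in 7 libraries, those with the ribosomal RNA share and the recovered reads were added after seeing the data.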

Additional observations from a re-analysis of the deposited data

How the results depend on the processing

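Over 22 alternatives, the 5 genes gave 110 log2 fold changes, of which 107 kept their direction and their side of the threshold, 3 reversed and 0 passed; the adjusted p ran from 0.323 to 1.00. All 3 reversals were of Hdac10 (-0.08): 0.10 in limma-voom with sample weights, 0.020 without the 2 choroid-rich libraries and 0.12 without untreated replicate 3; leaving out each library in turn gave -0.17 to 0.12. The cause was not tested. The count of all genes past the threshold, 0 by edgeR, was 7 in DESeq2, none of them a class II or IV HDAC gene. Without the 2 choroid-rich libraries the log2 fold changes were 0.19 for Hdac4, 0.25 for Hdac5, 0.03 for Hdac9 and -0.18 for Hdac11. The recovered whole reads equal the rounded counts, so their fit repeats the main one and its count of 0 adds no support. It is among the 22 alternatives, and its values for the 5 genes are among the 107. With the replicate number as a block, 0 of the 5 genes and 0 of all genes passed; Hdac5 was at 0.29 and Hdac4 at 0.20. No pairing by replicate number was seen: deviations of same-numbered libraries correlated at -0.49 to -0.03, and none of the 5 untreated libraries correlated best with its own number. With few libraries, some set apart by their markers, this check cannot exclude a pairing. Depth limits Hdac10 most, at 91 to 199 counts.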
